A study of Mus musculus with 15 samples.

Results

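The proteasome genes were taken as every gene of the count files whose symbol begins with Psma, Psmb, Psmc, Psmd, Psme, Psmf or Psmg followed by a digit. This rule found 50 of the 32657 genes counted. Of these, 31 encode the constitutive 26S proteasome: 7 alpha and 7 beta subunits of the 20S core, 6 ATPases and 11 non-ATPase subunits of the 19S cap. The others are 3 immunoproteasome beta subunits, 2 core subunits of other tissues, 5 activators or relatives of activators, 1 inhibitor and 7 assembly factors. *Psmc3ip* also matches the symbol pattern but encodes a recombination factor and no subunit.

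All mice were adults of 8 to 12 weeks. They carried the Drd3-Cre KI198 transgene, a bacterial artificial chromosome driver, and the Rosa26-fsTRAP allele, which makes EGFP-tagged ribosomal protein L10a in cells with Cre, mainly granule cells and mossy cells of the dentate gyrus (DG) here. WT mice had only these alleles. The cKO mice also carried floxed *Htr4*, the gene of serotonin receptor 4, and so lost an exon in the same cells. No drug was given before tissue collection. Translating ribosome affinity purification (TRAP) gave immunoprecipitated RNA (IP) from the ventral DG (vDG), and RNA of the homogenate before purification (input) was sequenced from the vDG and the dorsal DG (dDG). The 15 libraries formed 6 groups: for each of the 3 kinds of RNA there were 3 WT libraries and 2 cKO libraries. Each library came from pooled mice (3 per IP and 2 per input by the sample records, 1 male and 1 female by the methods), so a p-value measures the spread between pools. The records name cortex as the input source, whereas their titles and region fields name the DG.

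The proteasome degrades proteins that carry ubiquitin chains. Alpha rings gate a barrel of beta rings, in which the subunits encoded by *Psmb5*, *Psmb6* and *Psmb7* hold the active sites, and the cap binds, unfolds and feeds in the substrate. Interferon-induced *Psmb8*, *Psmb9* and *Psmb10* can take the place of these active subunits, and the PA28 activator of *Psme1* and *Psme2* can take the place of the cap. In neurons the proteasome turns over synaptic proteins.

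Counts on genes ran from 19039295 to 30451430 per library (median 24915901). The targeted gene *Htr4* lay between 13.6 and 16.0 CPM (counts scaled to library size, with TMM factors) in the WT IPs and between 26.7 and 29.8 CPM in the cKO IPs. It lay between 13.8 and 18.6 CPM in WT and 27.5 and 29.3 CPM in cKO vDG inputs, and between 24.9 and 33.9 CPM in WT and 47.1 and 51.3 CPM in cKO dDG inputs. A gene count does not resolve the deleted exon and therefore does not check the deletion. The summed level of 10 microglial markers was 29.6 to 64.2 CPM in vDG inputs and 5.80 to 9.17 CPM in IPs. For 6 astrocyte markers the sums were 324 to 543 CPM in vDG inputs and 48.2 to 107 CPM in IPs. The 5 granule cell markers summed to 961 to 1107 CPM in vDG inputs and 1195 to 1433 CPM in IPs. *Ttr*, the choroid plexus transthyretin, stood at 72.6 and 120 CPM in WT dDG inputs 2 and 3 and at 11.5 CPM or less in every other library.

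All 50 genes together took 0.280 to 0.368% of counts in WT IPs and 0.267 to 0.327% in WT vDG inputs. In cKO the share was 0.321 to 0.331% in IPs and 0.324 to 0.325% in vDG inputs, and in dDG inputs it was 0.286 to 0.321% in WT and 0.285 to 0.314% in cKO.

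Levels of different genes were compared as CPM per kilobase of exons. In WT vDG inputs, *Psma7* was the highest alpha subunit at 81.8 ± 14.1 CPM per kb, and *Psma2* the lowest at 32.4 ± 3.88 (SD, n = 3). Among beta subunits, *Psmb7*, of the trypsin-like site, stood at 105 ± 14.5 CPM per kb and *Psmb1* at 17.7 ± 2.13 (SD, n = 3). The highest and lowest values differed by 2.52-fold within the alpha class and by 5.95-fold within the beta class. These folds depend on the lengths used: the union of *Psmb1* exons is 3427 bases, against a median of 899 for the beta class, so its value per kb is low by this measure.

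In the cap, *Psmc5* was the highest ATPase at 116 ± 16.4 CPM per kb and *Psmc3* the lowest at 20.7 ± 3.37 (SD, n = 3). *Psmd6* led the non-ATPase subunits with 63.7 ± 7.01 CPM per kb, and *Psmd13* was the lowest with 9.07 ± 0.560 (SD, n = 3). The assembly factors lay lower, between *Psmg4*, a subunit of a core chaperone, at 5.02 ± 0.952 and *Psmd10*, the cap chaperone gankyrin, at 19.4 ± 3.18 CPM per kb (SD, n = 3). The inhibitor gene *Psmf1* stood at 6.93 ± 0.349 CPM per kb (SD, n = 3). *Psme1*, the alpha chain of PA28, stood at 65.1 ± 6.32 CPM per kb, whereas *Psme2b* stood at 1.01 ± 0.105 (SD, n = 3). *Psme2b* resembles *Psme2*, and reads that match both places were left out of the counts, so both values are uncertain. The tissue-specific core genes *Psma8* of the testis and *Psmb11* of the thymus were near 0, at 0.0381 ± 0.0481 and 0.130 ± 0.10 CPM per kb (SD, n = 3).

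**Figure D1:**
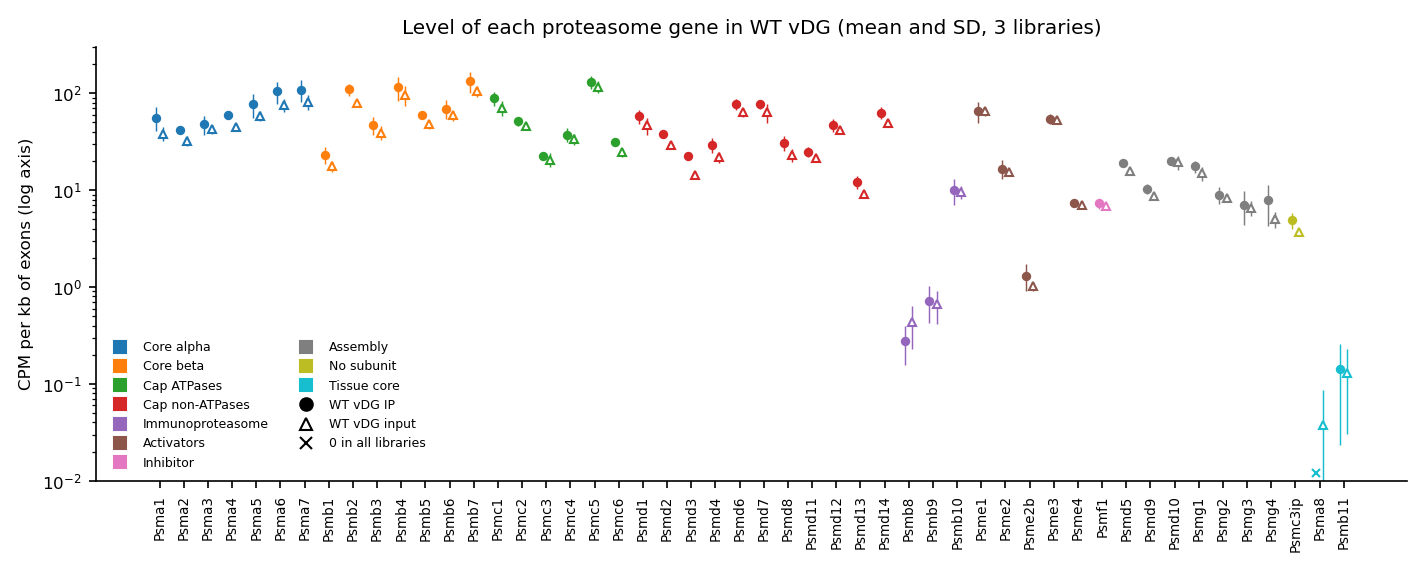
Level of each of the 50 genes in WT vDG IPs (filled circles) and WT vDG inputs (open triangles), in CPM per kb of exons on a log axis, with points for means and bars for the SD of 3 libraries, cut at the foot of the axis. The constitutive subunits lie between 9.07 CPM per kb (*Psmd13*, inputs) and 134 CPM per kb (*Psmb7*, IPs), *Psmb8* and *Psmb9* lie below 1, and a cross marks *Psma8* in the WT IPs, where each library counted 0.

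The immunoproteasome subunits were compared with the constitutive subunits they replace. *Psmb8* counts were 17, 8 and 9 in WT IPs, 17 and 19 in cKO IPs, 27, 22 and 9 in WT vDG inputs, and 10 and 9 in cKO vDG inputs. They were 8, 14 and 11 in WT dDG inputs and 9 and 20 in cKO dDG inputs. Its constitutive counterpart *Psmb5* stood at 56.6, 52.5 and 51.8 CPM in the same WT IPs and at 45.1, 38.0 and 46.6 CPM in WT vDG inputs. Per kb, *Psmb8* was 0.333 to 0.664% of *Psmb5* in WT IPs and 0.416 to 1.23% in WT vDG inputs.

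*Psmb9*, the counterpart of *Psmb6*, stood at 1.4, 0.912 and 0.604 CPM in WT IPs and at 1.12, 0.516 and 1.05 CPM in WT vDG inputs. *Psmb6* stood at 67.9, 53.7 and 43.8 CPM in WT IPs and at 48.8, 41.2 and 52.0 CPM in WT vDG inputs. In cKO IPs *Psmb9* was at 1.31 CPM and, from 2 counts, at 0.0841 CPM, the farthest apart of any group. The *Psmb9* exons overlap those of *Tap1* on the other strand, the kit did not mark strand, and reads on both genes were not counted. *Psmb10*, the counterpart of *Psmb7*, was the only one of the 3 with a sizeable level. Its values were 17.3, 13.0 and 9.27 CPM in WT IPs, 12.3 and 16.9 in cKO IPs, 12.2, 10.9 and 14.5 in WT vDG inputs, and 15.3 and 13.9 in cKO vDG inputs. *Psmb7* stood at 194, 153 and 119 CPM in WT IPs and at 127, 103 and 136 CPM in WT vDG inputs, so that per kb *Psmb10* was 6.87 to 7.88% and 8.52 to 9.46% of it. Of the 1160 exonic bases of *Psmb7*, 405 overlap *Nek6*, and reads on both were not counted, so the *Psmb7* level is a low estimate and these shares are high ones.

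IP against input asks which transcripts were more or less abundant on tagged ribosomes than in the whole vDG. In WT, constitutive 26S subunit mRNAs leaned to the IP: all 31 had a log2 fold change above 0, with a median of 0.28, but few passed the test. By edgeR's quasi-likelihood F-test at an FDR under 0.05, 2 of the 49 proteasome genes tested were higher in the IP and 0 were lower, and 11 had an unadjusted p under 0.05, all 11 higher. Such a p was found, in either direction, for 5415 of all 15011 genes tested. Among all genes tested, 7.73% were called higher and 16.1% lower, so the share of proteasome genes called higher was below the background in this fit. It was above the background without WT IP 3 (16 of 49, against 10.2% of all genes), with all groups in one fit (15 of 50, against 14.4%), and with no count filter (5 of 50, against 7.47%). Across the 49 genes 46 were above 0 with a median log2 fold change of 0.21, beside 50.2% of all genes above 0 with a median of 0.0029. The median was 0.10 without WT IP 1, 0.14 without WT input 2 and 0.33 without WT IP 3. DESeq2 called 5 proteasome genes higher and 0 lower, against 10.2% and 16.2% of all genes.

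*Psmd3*, a scaffold subunit of the cap lid, was at 49.0, 49.5 and 47.7 CPM in WT IPs and at 28, 32.9 and 31.6 CPM in WT inputs. The groups did not overlap, and the log2 fold change was 0.60 (SE 0.13, FDR 0.00311). *Psmb2*, a structural beta subunit, was at 108, 92.3 and 82.1 CPM in WT IPs and at 63.9, 64.9 and 73.7 CPM in inputs, again without overlap (log2 fold change 0.42, SE 0.14, FDR 0.0377).

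In cKO, 7 of the 48 genes tested were higher in the IP and 0 were lower, against 11.8% and 15.7% of all genes. All 7 were constitutive subunits, of which 29 of 31 had a log2 fold change above 0 (median 0.19). DESeq2 also called 7 higher, against 12.3% of all genes. *Psmb2* was at 120 and 119 CPM in IPs and 86.1 and 78.0 in inputs (log2 fold change 0.52, SE 0.10, FDR 0.00341). *Psmd3* was at 51.3 and 53.4 CPM in IPs and 38.4 and 33.3 in inputs (0.52, SE 0.13, FDR 0.00988). *Psmd8*, another lid subunit, was at 70.4 and 71.1 CPM in IPs and 55.9 and 53.6 in inputs (0.34, SE 0.11, FDR 0.0374). In each of these 3 genes both IPs exceeded both inputs. *Psmd7*, *Psma2*, *Psmd2* and *Psma4* were the others, with log2 fold changes between 0.32 and 0.34. The reads of *Psma4* overlap those of *AY074887*. WT and cKO libraries are separate in these comparisons, and *Psmd3* and *Psmb2* were called in both.

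By class in WT, the median log2 fold change was 0.34 for the alpha subunits, 0.25 for the beta subunits, 0.11 for the ATPases and 0.28 for the non-ATPase subunits. In cKO the order was not kept, with medians of 0.14, 0.22, 0.14 and 0.22 for the same classes. The 3 immunoproteasome genes, the 5 activators, the inhibitor and the 7 assembly factors had 0 called genes in either genotype by edgeR, with 0 at an unadjusted p under 0.05 and 0 by DESeq2. Some were called higher in other fits: *Psmd5*, a cap chaperone, in WT with all groups in one fit, *Psmg4* without WT IP 3, and with the length trend removed *Psmd5*, *Psmd9* and *Psmg4* in WT and *Psmd5*, *Psmd10*, *Psme2* and *Psme3* in cKO. *Psme1* was at 64.2, 60.5 and 92.5 CPM in WT IPs and at 66.7, 80.2 and 70.1 CPM in inputs, with overlapping groups (log2 fold change -0.06, SE 0.15). *Psmb10*, whose values are given above, overlapped as well (0.02, SE 0.22). Microglial markers differed much more in the same libraries: 10 of 10 were lower in WT IPs, with a median log2 fold change of -3.28. Endothelial markers did not: of 7 tested 0 were called and 5 were above 0, with a median of 0.11. Their sums were 6.38 to 21.3 CPM in WT IPs and 7.29 to 11.7 CPM in WT vDG inputs.

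**Figure D2:**
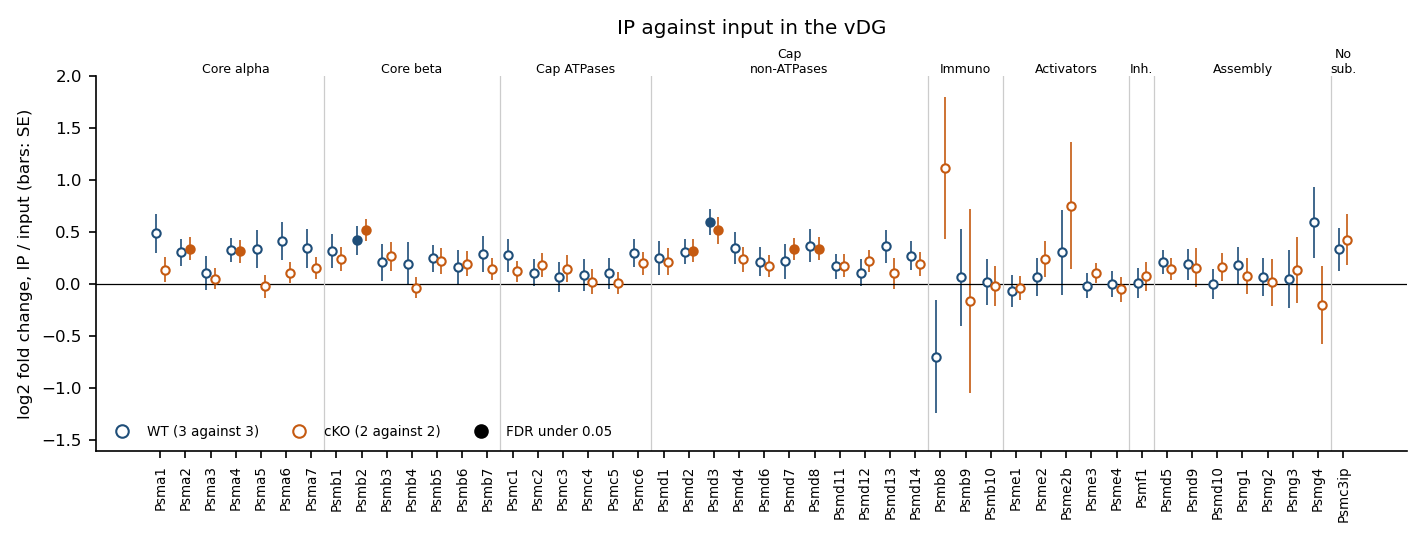
Log2 fold change of IP against input in the vDG for each gene with its SE, in WT (blue, 3 against 3 libraries) and cKO (orange, 2 against 2), with filled points for an FDR under 0.05 and columns grouped by class. The 2 WT and 7 cKO calls lie above 0 among constitutive subunits, and *Psmb8*, *Psmb9* and *Psme2b* have the widest bars.

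Single libraries and a correction for transcript length moved these counts. The 31 constitutive subunits summed to 3385, 2828 and 2589 CPM in the 3 WT IPs and to 2521, 2103 and 2450 CPM in the 3 WT vDG inputs. WT IP 1 was the highest of its group for 26 of the 31 subunits and WT IP 3 the lowest for 25. Without WT IP 3, 16 genes were called higher, and without WT IP 1, WT IP 2, WT input 1 or WT input 2 *Psmd3* alone was. In cKO IPs the sums were 2932 and 2965 CPM, and without cKO input 2 *Psmb2* alone was called.

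The proteasome genes are short, with a median exonic length of 1505 bases against 2917 for all genes with a count and a length. When the trend of each library with length was removed, 30 genes were called higher in WT and 32 in cKO, and 0 lower in both, while 31.4% and 31.6% of all genes were called higher. The median of all genes then moved to 0.23 in both genotypes, and the proteasome genes' median lay 0.18 above it in WT and 0.22 in cKO, beside 0.21 and 0.19 without the correction. Each gene was still tested against 0, not against that median. How much of the added calls came from this shift was not tested. The distance between the medians therefore moved little, whereas the calls in WT went from below the share of all genes, at 2 of 49, to above it, at 30 of 49. In cKO, 7 of 48 and 32 of 48 were both above it. Below it were 1 of 48 with library size alone (4.96% of all genes) and 3 of 46 with 10 counts in every library (11.5%). So were 4 of 50 with all groups in one fit (10.6%) and 7 of 48 at an FDR of 0.1 (15.8%). Reads that fell on more than 1 gene were 2.50 to 2.75% of the records in IPs and 5.62 to 8.60% in inputs, and 9 proteasome genes have exons that overlap another counted gene, *Psmd3* and *Psmb2* not among them. The part of this loss in the fold changes was not tested.

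**Figure D3:**
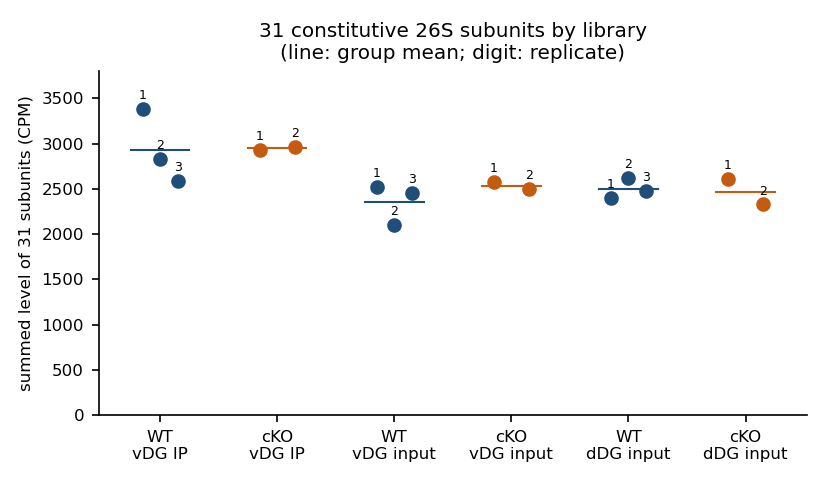
Summed level of the 31 constitutive 26S subunits in each of the 15 libraries (CPM, axis from 0), with a line at each group mean and the replicate number above each point. All 5 IPs lie above all vDG inputs, from 2589 against 2574 CPM at the nearest, and the 3 WT IPs are spread from 2589 to 3385 CPM. The order depends on the TMM scaling: as a share of counts, WT IP 3 (0.233%) lies below 4 of the 5 vDG inputs (0.254 to 0.275%).

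Other genes of the pathway were counted from lists. Of 10 proteasome partners, 2 were higher in WT IPs: *Ube3c*, a ligase bound to the proteasome (log2 fold change 0.43, SE 0.12, FDR 0.0175), and *Usp14*, a deubiquitinase of the cap (0.46, SE 0.14, FDR 0.0306). In cKO 3 of 10 were higher: *Ube3c* (0.50), *AI314180*, also known as the scaffold gene Ecpas (0.33), and *Pomp*, the core maturation factor (0.29), with FDRs of 0.00307, 0.0416 and 0.0410. Among 4 regulators, *Nfe2l2*, a transcription factor of the oxidative stress response, was the one called. It stood at 4.01, 3.41 and 5.24 CPM in WT IPs and at 8.68, 15.2 and 10.5 CPM in inputs (log2 fold change -1.51, SE 0.24, FDR 0.000359), and it fell by 1.87 in cKO IPs (SE 0.29, FDR 0.000663).

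Of 14 genes of ubiquitin supply and shuttling, 3 were higher in WT IPs and 1 in cKO IPs. *Uba1*, the main ubiquitin-activating enzyme, stood at 410, 340 and 437 CPM in WT IPs and at 230, 279 and 234 CPM in WT vDG inputs (log2 fold change 0.61, SE 0.13, FDR 0.00303). *Vcp*, a segregase that unfolds ubiquitinated proteins, rose by 0.49 (SE 0.12, FDR 0.00947), and *Uba6*, a second activating enzyme, by 0.47 (SE 0.14, FDR 0.0229). In cKO, *Uba1* rose by 0.53 (SE 0.13, FDR 0.0109). Of 9 antigen presentation genes tested, 2 were lower in WT IPs: *H2-K1*, a heavy chain of MHC class I (-1.72, FDR 0.0025), and *B2m*, its light chain (-0.38, FDR 0.047).

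The comparison of cKO with WT asks what loss of *Htr4* in KI198 cells changed. These comparisons use the libraries of the IP and region comparisons again. In the vDG IP, 0 of the 49 proteasome genes tested passed an FDR of 0.1 with edgeR, against 0.42% of all genes. An unadjusted p under 0.05 was found for 4 of the 49 and for 1674 of all 14300 genes. The SE of the 31 constitutive subunits ran from 0.13 to 0.20 on the log2 scale. Changes of 0.43 (*Psma2*) and -0.39 (*Psmd1*), given below, were not called, so changes of that size were not resolved. *Psma2*, an alpha ring subunit, stood at 135, 115 and 115 CPM in WT and 169 and 151 CPM in cKO IPs, without overlap (log2 fold change 0.43, SE 0.14, FDR 0.259). DESeq2 called this 1 gene, with an FDR of 0.0868, and gave no FDR for 8 proteasome genes. Of the 7923 genes to which it gave one, it called 4.51%. *Psmb2* stood at 108, 92.3 and 82.1 CPM in WT and 120 and 119 CPM in cKO (0.38, SE 0.15, FDR 0.351). *Psmd1*, the largest cap subunit, went the other way, from 186, 148 and 208 CPM in WT to 118 and 150 CPM in cKO, with overlap (-0.39, SE 0.16, FDR 0.37).

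In the vDG input, 0 of 49 genes passed an FDR of 0.05 with edgeR, against 2.44% of all genes. DESeq2 called 0 as well, and gave no FDR for 5 proteasome genes. Of the 10889 genes to which it gave one, it called 5.75%. By edgeR 5 had an unadjusted p under 0.05, as did 2338 of all 15786 genes. *Psma2* was at 95.2, 82.7 and 105 CPM in WT and 133 and 115 CPM in cKO (log2 fold change 0.38, SE 0.13, FDR 0.147). *Psma7*, another alpha ring subunit, was at 111, 78.1 and 101 CPM in WT and 125 and 126 CPM in cKO (0.37, SE 0.14, FDR 0.20). In both genes the cKO inputs lay above the WT inputs. The median over the 49 genes was 0.10, beside 0.01 for all genes. It was 0.05 without WT vDG input 2, the lowest of its group for 26 of the 31 constitutive subunits, and also 0.05 with the length trend removed, where it lay 0.02 above the median of all genes, beside 0.09 without that correction.

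In the dDG input, 0 of 48 genes passed with edgeR, against 0.0325% of all genes. DESeq2 called 0, and gave no FDR for 4 proteasome genes. Of the 10611 genes to which it gave one, it called 1.77%. By edgeR 5 had an unadjusted p under 0.05, as did 1881 of all 15383 genes. *Psme4*, the activator PA200, was at 58.2, 53.4 and 53.7 CPM in WT and 66.4 and 72.3 CPM in cKO, without overlap (log2 fold change 0.33, SE 0.11, FDR 0.252). *Psmd12*, a lid subunit, was at 98.1, 99.2 and 109 CPM in WT and 130 and 118 CPM in cKO (0.28, SE 0.11, FDR 0.311). The median over the 48 genes was -0.03, beside -0.02 for all genes. It turned to 0.05 without cKO dDG input 2, the lower of its pair for 28 of the 31 constitutive subunits, and to 0.07 with the length trend removed.

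**Figure D4:**
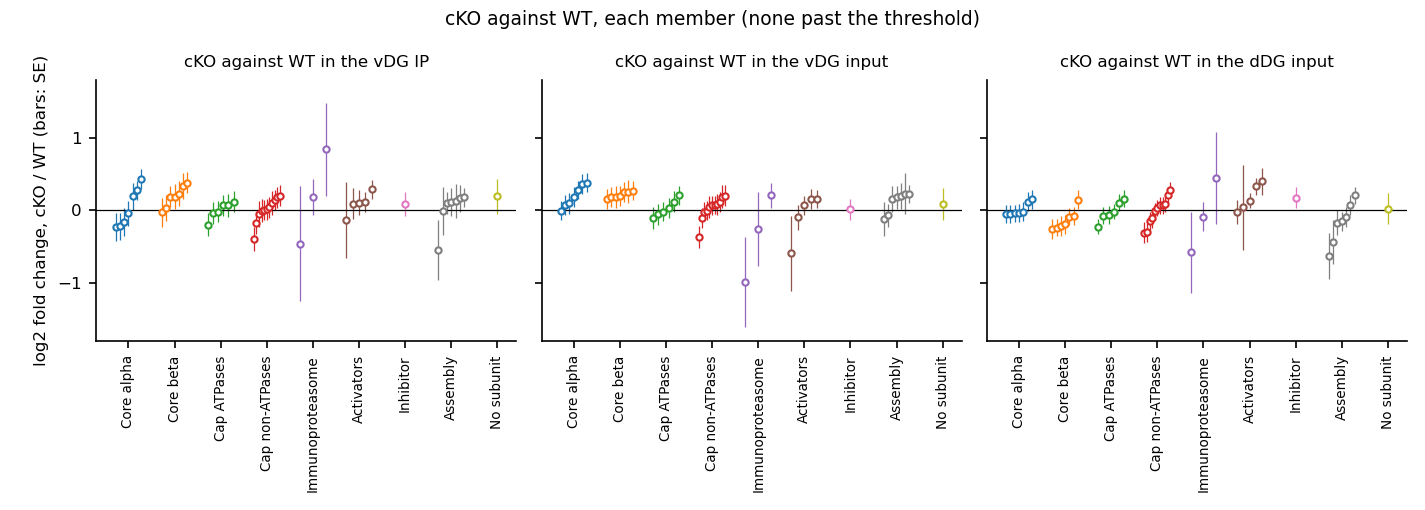
Log2 fold change of cKO against WT with its SE for each gene, ordered within its class, in the vDG IP, vDG input and dDG input. The tissue core genes are left out, and no point passed its threshold. The widest bars in each panel belong to *Psmb8* or *Psmb9*, and most constitutive subunits lie within 0.4 of 0.

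Some other pathway genes passed the test with genotype. *Uba1* stood at 410, 340 and 437 CPM in WT and 207 and 249 CPM in cKO vDG IPs, and *Vcp* at 188, 154 and 186 CPM in WT and 85.1 and 109 CPM in cKO. Neither overlapped. Their log2 fold changes were -0.76 (SE 0.15) and -0.83 (SE 0.15), and that of *Uba6* was -0.88 (SE 0.17), each with an FDR of 0.0705 against the threshold of 0.1. In the vDG input *Uba1* fell by 0.69 (SE 0.14, FDR 0.00853) and *Vcp* by 0.72 (SE 0.13, FDR 0.00595). These were 3 and 2 of the 14 ubiquitin genes. The IP calls were lost at an FDR of 0.05, without WT IP 2 and without cKO IP 1, where 0 of all genes were called, and without cKO vDG input 1 the genes called in the vDG input fell from 385 to 6 over all genes. In the dDG input 0 of 14 were called. Over the 10 microglial markers the median was -0.52 on the log2 scale for cKO against WT in the vDG input and -0.53 in the dDG input, with 0 called in either. Of 6 astrocyte markers, 4 were called lower in cKO in the vDG input (median -0.63) and 0 in the dDG input (median -0.26), and of 5 granule cell markers 1 was called lower in the vDG input (median -0.06). In the vDG IP, astrocyte markers had a median of -0.60 (0 of 6 called, 2 with an unadjusted p under 0.05), and of 4 interneuron markers tested 1 was called lower (median -0.35), with sums of 166 to 193 CPM in WT and 114 to 129 CPM in cKO. Their part in the differences of *Uba1*, *Vcp* and *Uba6* was not tested. No partner, regulator or antigen presentation gene was called in any of the 3 genotype comparisons.

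The difference of the IP-to-input fold change between genotypes was tested over the 10 vDG libraries. With edgeR 0 of 49 proteasome genes passed an FDR of 0.05, as did 0% of all genes, and 0 of the 49 had an unadjusted p under 0.05, with 0 calls by DESeq2. Of all 16093 genes, 497 had such a p by edgeR. *Psmb8* was nearest to a call, at a log2 difference of 1.85 (SE 0.90, FDR 1) from 8 to 27 counts per library in these groups. *Psmg4* followed with -0.77 (SE 0.54, FDR 1).

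Between the vDG and dDG inputs, the genes called by edgeR were activators and *Psmb10*, and 0 of the 31 constitutive subunits were called in either genotype (4 had an unadjusted p under 0.05 in each). Over all genes, 4193 of 15412 in WT and 4694 of 15505 in cKO had such a p. With the replicate number as a block, edgeR called *Psma7* and *Psmb1* lower in WT, and *Psmd1* and *Psmd14* lower and *Psmd13* higher in cKO. In WT, 2 of the 48 genes tested were higher in the vDG and 0 were lower, against 9.26% and 6.09% of all genes, so fewer proteasome genes than background genes were called. *Psme1* stood at 66.7, 80.2 and 70.1 CPM in vDG and at 25.6, 27.3 and 44.0 CPM in dDG inputs. The groups were far apart, with a log2 fold change of 1.17 (SE 0.17, FDR 0.000126), or 2.25-fold. Exons of *Psme1* and *Emc9* overlap by 7 bases. *Psmb10* stood at 12.2, 10.9 and 14.5 CPM in vDG and 9.96, 7.31 and 8.35 CPM in dDG inputs, without overlap (0.57, SE 0.17, FDR 0.0352). Leaving out WT vDG input 1 or 3 or WT dDG input 2 or 3 ended the *Psmb10* call, with FDRs up to 0.162, as did fitting all groups together (FDR 0.0856), whereas *Psme1* remained called in each of these fits.

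In cKO, 2 of 48 genes were higher in the vDG and 1 was lower, against 8.56% and 8.47% of all genes. *Psme1* stood at 79.7 and 73.5 CPM in vDG and 41.4 and 44.1 CPM in dDG inputs (log2 fold change 0.83, SE 0.12, FDR 4.63e-05), and *Psmb10* at 15.3 and 13.9 against 8.86 and 7.22 CPM (0.84, SE 0.18, FDR 0.00237). Both vDG inputs exceeded both dDG inputs in each gene, in libraries that the WT comparison does not use. *Psme4* went the other way, at 49.5 and 52.7 CPM in vDG and 66.4 and 72.3 CPM in dDG (-0.45, SE 0.12, FDR 0.0117). In WT it was at 49.5, 45.8 and 41.3 CPM in vDG and 58.2, 53.4 and 53.7 CPM in dDG (-0.26, SE 0.12, FDR 0.167). Its cKO call was lost without cKO vDG input 1 or cKO dDG input 2. DESeq2 called the same 3 genes in cKO, and in WT it called *Psma7*, *Psmb1* and *Psmc3ip* lower beside the 2 genes that were higher.

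*Psme2*, which encodes the partner chain of *Psme1*, stood at 15.4, 13.6 and 15.6 CPM in WT vDG and 9.65, 12.6 and 12.4 CPM in WT dDG inputs (log2 fold change 0.38, SE 0.16, FDR 0.123). In cKO the difference was 0.29 (SE 0.17, FDR 0.257). Per kb, *Psme1* exceeded *Psme2* by 3.81- to 5.16-fold in WT vDG and 1.90- to 3.12-fold in WT dDG inputs, and by 4.39- to 5.25-fold and 3.12- to 3.5-fold in cKO. Reads that match both *Psme2* and *Psme2b* were left out of the counts, so these ratios are uncertain. Of the antigen presentation genes, 6 of 10 tested in WT and 2 of 8 tested in cKO had a log2 fold change above 0 (medians 0.14 and -0.20). In WT 0 were called, and in cKO *B2m* was lower in the vDG (-0.48, SE 0.15, FDR 0.0334).

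Of the 10 microglial markers 0 were called between regions in either genotype, with median log2 fold changes of -0.31 in WT and -0.24 in cKO. WT dDG input 1, with *Ttr* at 4.13 CPM, had the lowest *Psme1* value, and WT dDG input 3, with *Ttr* at 120 CPM, the highest of its group. Without WT dDG input 3 the *Psme1* log2 fold change was 1.46, and without WT dDG input 2 it was 1.06. Of 5 granule cell markers, 3 were lower in the vDG in WT and 4 in cKO, and of 6 interneuron markers 2 were higher in each. Interneuron markers summed to 433 to 497 CPM in WT vDG and 284 to 348 CPM in WT dDG inputs, and to 365 to 368 CPM and 303 to 328 CPM in cKO. Of 6 oligodendrocyte markers, 3 were lower in the vDG in WT and 2 in cKO, with sums of 357 to 445 CPM in WT vDG and 480 to 509 CPM in WT dDG inputs. Their part in the *Psme1* and *Psmb10* results was not tested. In such bulk RNA, fewer cells of a type and less RNA per cell cannot be told apart.

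**Figure D5:**
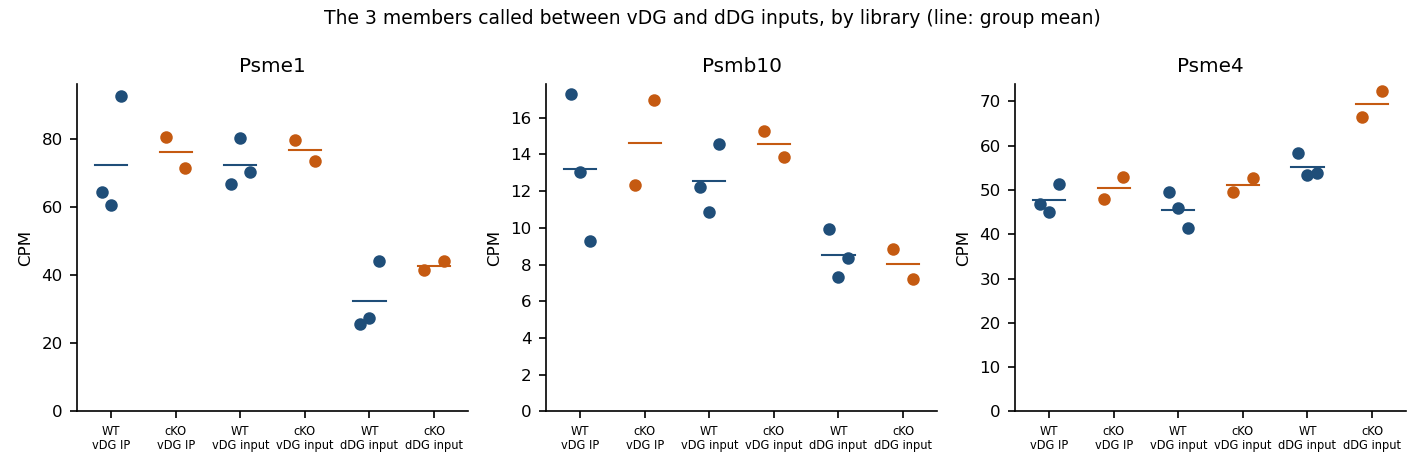
Level of *Psme1*, *Psmb10* and *Psme4* in each of the 15 libraries (CPM, axes from 0), with lines at group means, in WT (blue) and cKO (orange). The dDG inputs lie below the vDG inputs for *Psme1* and *Psmb10* and above them for *Psme4*, and the vDG IPs lie near the vDG inputs.

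The promoters of the 3 genes called between regions are shown because *Psme1* and *Psmb10* were higher in the vDG in both genotypes and *Psme4* was lower there in cKO. They were read from RefSeq on GRCm38.p6, as 300 bases that span the gene start of RefSeq, at chr14:55578244-55578543 (plus strand) for *Psme1*, chr8:105938343-105938642 (minus strand) for *Psmb10* and chr11:30771525-30771824 (plus strand) for *Psme4*. GENCODE places the start of *Psme1* at 55578123, before its window. Capitals mark matches on either strand to the interferon-stimulated response element core, which is GAAA, any 2 bases and GAAA, or to the antioxidant response element core TGANNNNGC.
Psme1: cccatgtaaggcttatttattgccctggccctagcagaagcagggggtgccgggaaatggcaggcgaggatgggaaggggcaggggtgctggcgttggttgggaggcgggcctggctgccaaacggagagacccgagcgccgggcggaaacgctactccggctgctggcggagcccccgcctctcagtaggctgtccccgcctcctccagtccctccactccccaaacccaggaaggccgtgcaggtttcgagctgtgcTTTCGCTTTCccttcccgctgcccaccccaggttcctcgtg
Psmb10: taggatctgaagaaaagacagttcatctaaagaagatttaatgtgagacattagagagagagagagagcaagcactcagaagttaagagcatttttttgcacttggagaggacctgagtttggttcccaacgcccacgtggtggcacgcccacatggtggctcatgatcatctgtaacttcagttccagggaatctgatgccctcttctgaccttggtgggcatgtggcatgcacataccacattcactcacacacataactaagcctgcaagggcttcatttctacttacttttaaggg
Psme4: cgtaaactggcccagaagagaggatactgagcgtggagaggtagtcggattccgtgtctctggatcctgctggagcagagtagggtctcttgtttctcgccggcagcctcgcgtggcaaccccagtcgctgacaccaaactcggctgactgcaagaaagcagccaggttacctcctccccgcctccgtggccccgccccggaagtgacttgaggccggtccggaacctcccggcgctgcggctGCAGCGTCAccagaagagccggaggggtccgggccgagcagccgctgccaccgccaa
The *Psme1* window held 1 match to the interferon element, the *Psme4* window 1 match to the antioxidant element, and the *Psmb10* window neither. Over the 45 promoters found for 42 of the 50 genes, the interferon element was in 5 (11.1%), beside 3.45% of 32544 promoters, and the antioxidant element in 26 (57.8%), beside 41.4%.

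Among constitutive subunits, in WT all 14 core subunits had log2 fold changes below 0, with a median of -0.18 (over all 48 genes the median was -0.06, and 0.03 without WT vDG input 2), and the nearest to a call was *Psmb1* (-0.36, SE 0.12, FDR 0.0644). In cKO 11 of the 14 were above 0, with a median of 0.08. The genotype by region interaction over the 10 input libraries called 0 of 50 proteasome genes at an FDR of 0.05 with edgeR, as it did 0% of all genes. DESeq2 called 0 too, against 4.36% of all genes (256 of 5874), and gave no FDR for 14 of the 50. By edgeR there were 5 proteasome genes with an unadjusted p under 0.05, beside 2010 of all 16306 genes. All 14 core subunits had an interaction above 0, with a median of 0.22. WT vDG input 2 was the lowest of its group for 26 of the 31 constitutive subunits, and cKO dDG input 2 for 28. The median of the 50 genes lay 0.11 above that of all genes, 0.03 above it without the first of these libraries, 0.02 above it without the second, and 0.01 below it with the length trend removed. The core subunits alone were not refitted this way. *Psmd1* was nearest to a call, at 117, 118 and 119 CPM in WT dDG, 154, 169 and 112 CPM in WT vDG, 123 and 149 CPM in cKO dDG, and 103 and 123 CPM in cKO vDG inputs (log2 difference -0.59, SE 0.21, FDR 0.256). *Psmd13*, a lid subunit, was next, at 20.1, 18.6 and 19.8 CPM in WT dDG, 17.7, 17.2 and 19.3 CPM in WT vDG, 16.2 and 15.3 CPM in cKO dDG, and 21.9 and 19.6 CPM in cKO vDG inputs (0.48, SE 0.20, FDR 0.324). Among pathway genes in WT, *Usp14* (0.47), *Txnl1* (0.43), a redox protein bound to the cap, and *Ubqln2* (0.44), a shuttle, were higher in the vDG. *Rps27a* (-0.66), which encodes ubiquitin fused to a ribosomal protein, and *Ddi2* (-0.52), a protease that processes proteasome regulators, were lower, with FDRs of these 5 between 0.0067 and 0.041. In cKO *Nfe2l2* (-0.81, FDR 0.00601) and *AI314180* (-0.35, FDR 0.0401) were lower in the vDG.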

How the data were processed

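RNA-seq counts of 15 libraries were used. The authors amplified 15 ng of RNA, aligned reads to mm10 with STAR 2.4.2a, removed duplicates with SAMtools 0.1.19-444, counted reads on genes with HTSeq and deposited the raw counts. Duplicate removal can lower abundant transcripts more than rare ones. Records on no single gene (24.7 to 37.8% per library) were left out. The 5 deposited tables of the authors' own DESeq2 comparisons were not used.

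Groups came from the sample titles. For each of 9 comparisons, the libraries compared were scaled by TMM, filtered by filterByExpr and tested two-sided with the quasi-likelihood F-test of edgeR 4.0.16 in R 4.3.3. FDRs are Benjamini-Hochberg adjusted over all genes tested, with thresholds of 0.05, or 0.1 for cKO against WT in the IP. SEs come from the F statistics. CPM values use TMM over all libraries. Exonic lengths are unions of GENCODE M21 basic exons on GRCm38, the same assembly as mm10. The function was tested on simulated data. The genes, lists and tests were chosen with earlier results of these data known. Values per library are given for the immunoproteasome genes, their counterparts, and per comparison up to 3 called genes per direction with at least 5 CPM on average and the largest change, or otherwise the 2 smallest p. *Psmd1* in the IP and library values of pathway genes were added after values were seen. Some called genes of the pathway lists are not reported here. Alternatives included DESeq2 1.42.0, other scalings and filters, all groups in 1 fit, a replicate block, a length correction (loess span 0.5), other thresholds and leaving out each library. Intervals and SEs do not cover amplification error.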

Additional observations from a re-analysis of the deposited data

How the results depend on the processing

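IP against input in WT gave 2 proteasome genes called. The count was 5 with DESeq2, 5 with no count filter, 5 at an FDR of 0.1, 1 with library size alone, 1 with 10 counts in every library, 15 with all groups in one fit, 30 with the length trend removed, and 1 to 16 when single libraries were left out (1 without WT IP 1 or 2 or WT vDG input 1 or 2, 16 without WT IP 3). Over all genes, 10.2% were called higher with DESeq2, 7.47% with no count filter and 12.2% at an FDR of 0.1. The share was 5.70% with 10 counts in every library, 14.4% with all groups in one fit and 10.2% without WT IP 3. It was 3.86 to 6.51% in the 1-call fits without a single library. In cKO the 7 calls became 1 with library size alone, 3 with 10 counts in every library, 4 with all groups in one fit and 32 with the length trend removed. Over all genes, 11.5% were called higher with 10 counts in every library and 10.6% with all groups in one fit. Leaving out 1 cKO library leaves 1 in its group, and the proteasome median then ran from 0.13 to 0.20. Every one of these calls was higher in the IP. Library size alone moved the median of all genes to -0.13 in WT and -0.20 in cKO and the proteasome median to 0.08 and -0.01, which left it 0.21 and 0.19 above all genes. In WT, calls over all genes were then 3.24% higher and 20.1% lower, and with the length trend removed 31.4% higher and 12.4% lower; in cKO they were 4.96% and 21.4%, and 31.6% and 11%.

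For cKO against WT in the vDG IP DESeq2 gave 1 call, and leaving out single libraries gave 0 to 0. Leaving out single libraries gave 0 to 1 calls in the vDG input (*Psma7* without WT vDG input 1) and 0 to 1 in the dDG input (*Psme1*, higher in cKO, without WT dDG input 3). Between regions in WT the 2 calls became 5 with DESeq2, 5 with no count filter, 6 with the length trend removed and 6 at an FDR of 0.1 (with all groups in one fit there were 2, *Psme1* and *Psmb11*, without *Psmb10*), with 1 to 4 without single libraries (1 without WT dDG input 2, 4 without WT dDG input 3). Over all genes, the first 4 of these fits called 16.8%, 12.4%, 18.9% and 20.1%. Without WT dDG input 2 or 3 the shares were 10.5% and 13.9%. In cKO the 3 calls became 6 with the length trend removed and 5 at an FDR of 0.1, against 19.8% and 23.9% of all genes. Leaving out 1 cKO library leaves 1 in its group, and the proteasome median then ran from -0.01 to 0.13. No interaction call appeared under any of these settings, and no named gene changed direction; over the refits of named genes 319 kept their side of the threshold, 42 lost a call and 2 gained one. Apart from the settings built on fewer libraries or genes, the cause was not tested.

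Replicate numbers were shared between groups, but same-numbered libraries did not deviate together throughout: the correlations of their deviations between WT IP and vDG input were 0.46, -0.16 and -0.33, and between WT vDG and dDG inputs 0.38, -0.11 and 0.22. In cKO, where 2 libraries per group give both pairs the same value, they were 0.44 and 0.16. The file names of the cKO dDG inputs carry other replicate numbers than the titles used here, so the pairing of those libraries in the block is in doubt. With a replicate block the count was 1 for IP against input in WT, 10 in cKO, 1 for cKO against WT in the vDG input (*Psmd1*, lower), 1 in the dDG input (*Psme1*, higher), and 5 and 6 between regions in WT and cKO, with constitutive subunits among them. Over all genes the block called 6.78% higher in WT IPs and 18.1% in cKO IPs, 2.60% and 0.891% in the 2 genotype comparisons, and 19.1% and 24.9% between regions. With the block and the length trend removed together, the counts were 31, 39, 1, 2, 7 and 7, beside 31.4% and 38.4% higher, 2.35%, 4.51%, 25.1% and 25.6% of all genes. The 2 to 35 counts per library of *Psmb8* and *Psmb9* leave SEs of 0.47 or more, and a lone library in a group left with 1 is assumed to vary like the rest.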
